A study of Macaca fascicularis with 3 samples.

Results

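Satellite cell nuclei, the nuclei of the resident stem cells of skeletal muscle, were taken from a droplet sequencing study of crab-eating macaques (Macaca fascicularis) that sampled extraocular muscle (EOM) and quadriceps femoris muscle (QFM), a limb muscle. The series holds 1 library of EOM nuclei with 16491 barcodes, 1 library of QFM nuclei with 12503 barcodes, and 1 library of dissociated whole EOM cells with 8979 barcodes. The labels give no treatment, age or number of animals for either muscle, so muscle, animal and library cannot be told apart. The QFM library is titled as nuclei while its files are named as single cells.

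A barcode was taken as a satellite cell nucleus when it held at least 2 unique molecular identifiers (UMIs, each a counted RNA molecule) summed over 3 genes. These were PAX7, the paired-box factor that specifies satellite cells, CHRDL2, a secreted chordin-like antagonist of bone morphogenetic proteins, and MYF5, a myogenic basic helix-loop-helix factor. Barcodes in which the UMIs of the myosin heavy chain genes MYH3, MYH4, MYH6, MYH7, MYH13 and MYH15 reached 1% of the total in EOM, or 0.25% in QFM, were left out. The rule found 586 of 16491 barcodes in EOM (3.55%, exact 95% binomial interval 3.28 to 3.85%) and 429 of 12503 in QFM (3.43%, 3.12 to 3.77%), together 1015 of the 37973 barcodes of the series. These choosing values describe the nuclei and support no result. With 1 library a muscle there is no test of any difference, and all intervals cover counting error only.

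Satellite cells lie between the basal lamina and the membrane of the muscle fibre and are held in quiescence in resting adult muscle largely by Notch signalling. They can enter the cell cycle and differentiate through the myogenic factors MYF5, MYOD1 and MYOG to repair or enlarge fibres. In the mouse, satellite cells of the head come from cranial mesoderm, whereas those of the limb come from somites and depend on PAX3 during development. Extraocular muscles move the eye and keep a dense satellite cell population, and their satellite cells have been of interest because these muscles are spared in several muscular dystrophies.

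The EOM satellite nuclei held 1732216 UMIs and the QFM satellite nuclei 1411097. Their median depth was 2196.5 UMIs in EOM (range 657 to 37829) and 2677 in QFM (559 to 21300), and their median number of detected genes 1425 in EOM and 1632 in QFM. Mitochondrial transcripts took a median of 0.561% of UMIs in EOM and 0.885% in QFM, and the myosin genes of the rule 0.350% in EOM and 0.0502% in QFM. The EOM and QFM libraries shared 51 barcode sequences, and 0 of these were satellite nuclei.

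The same barcodes were placed by an unsupervised clustering of each library, which the rule did not use. The satellite-like cluster of each library was, however, named from PAX7, CHRDL2, MYF5 and NCAM1. Its name is therefore not independent of the rule genes. In EOM, 414 of the 586 nuclei (70.6%, holding 49.3% of their UMIs) fell in the satellite-like cluster, against 372 of 429 in QFM (86.7%, 70.4% of UMIs). Another 88 EOM nuclei (15.02%, 27.1% of UMIs, median 4602.5 UMIs) fell in myofibre-like clusters, against 2 in QFM (0.466%). Called doublets numbered 62 in EOM (10.6%) and 42 in QFM (9.79%). A larger share of EOM than of QFM members thus lay outside the satellite-like cluster. The leading values below are therefore also given for the 414 EOM and 372 QFM members inside these clusters, called in-cluster nuclei. The clusters themselves held 551 barcodes in EOM and 396 in QFM, of which 75.1% in EOM and 93.9% in QFM met the rule.

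**Figure D1:**
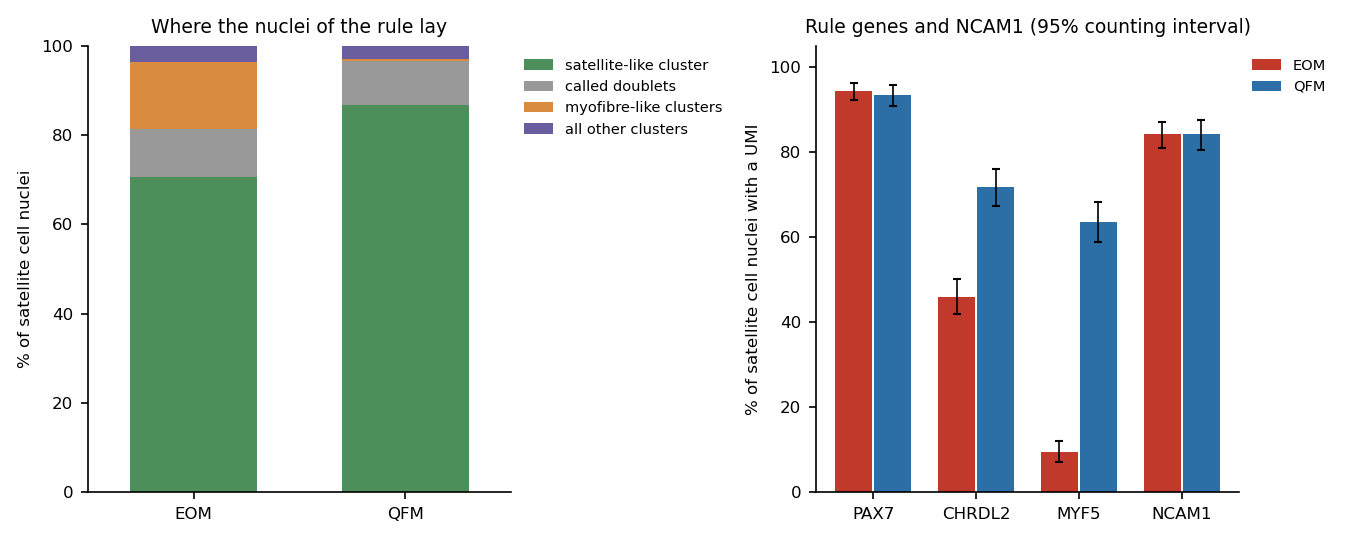
Left, the share of the nuclei chosen by the rule (y axis, % of nuclei) that fell in the satellite-like cluster, in myofibre-like clusters, in all other clusters or among called doublets, for EOM and QFM. Right, the share of nuclei with a UMI of each rule gene and of NCAM1, with exact binomial 95% intervals: PAX7 and NCAM1 are level, while MYF5 is seen in 9.39% of EOM and 63.6% of QFM nuclei.

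Summed levels of markers of other cell types are given in UMIs per 1000000 UMIs of the class (CPM) for all members and then for in-cluster nuclei. The 20 myofibre genes, which include myosin genes of the rule, summed to 19881.5 CPM in EOM and 8246 in QFM. In-cluster they summed to 10889 in EOM and 4706 in QFM. The same genes summed to 56701 CPM in EOM, against 74941.5 in QFM myofibre-like nuclei. In endothelial-like nuclei, a class outside the fibre, they summed to 7027 CPM in EOM, against 5779 in QFM. MYH4 was at 0 in QFM members, and MYH6 as well in-cluster. The 11 fibroblast genes summed to 1948 in EOM and 2944 CPM in QFM, in-cluster 2155 in EOM and 1869.5 in QFM, with none at 0. The 10 endothelial genes summed to 755 CPM in EOM, against 648 in QFM, in-cluster 238 in EOM and 101 in QFM. The 8 mural genes, of pericytes and smooth muscle, summed to 669 CPM in EOM, against 849 in QFM, in-cluster 733 in EOM and 850.2 in QFM.

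Immune and nerve markers follow in the same form. The 8 macrophage genes summed to 131 CPM in EOM and 137 in QFM, in-cluster 64.4 in EOM and 18.1 in QFM, and PTPRC, LYVE1 and MSR1 were at 0 in the QFM in-cluster nuclei. The 8 T or NK cell genes summed to 47.9 CPM in EOM, against 18.4 in QFM, in-cluster 41.0 in EOM and 16.1 in QFM, with CD3D and CD2 at 0 in the in-cluster nuclei of both muscles. The 8 Schwann cell genes summed to 366 CPM in EOM, against 92.1 in QFM, in-cluster 199 in EOM and 28.2 in QFM. In in-cluster nuclei the summed levels were 31.6 CPM in EOM, against 26.2 in QFM, for adipocyte genes and 50.4 in EOM and 67.4 in QFM for tenocyte genes. Mast cell genes summed there to 17.6 CPM in EOM, against 2.01 in QFM, and perineurial genes to 66.8 in EOM and 30.2 in QFM. ADIPOQ, PLIN4, CIDEC, LEP and TNMD were at 0 in the in-cluster nuclei of both muscles. The part of these transcripts in the differences below was not tested.

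NCAM1, an adhesion molecule of the satellite cell surface that the rule did not use, gives a check of the threshold. Barcodes below the myosin limit averaged 118 CPM of NCAM1 in EOM and 62.4 in QFM with 0 UMIs of the marker genes. Just outside the threshold, with 1 UMI, the level was 315 CPM over 586 EOM barcodes and 307 CPM over 52 QFM barcodes. Just inside it, with 2 UMIs, it was 976 CPM over 207 EOM barcodes and 498 CPM over 33 QFM barcodes. The 50 EOM nuclei with a myosin share in the last 20% below the limit had 466 CPM of NCAM1, and the 62 barcodes within 20% above it 198 CPM. The QFM values were 516 CPM over 15 nuclei below the limit and 477 CPM over 20 above it.

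The rule genes are given first, as a description of the choice. PAX7 was seen in 94.4% of EOM and 93.5% of QFM nuclei, and CHRDL2 in 45.9% of EOM and 71.8% of QFM nuclei. MYF5 was seen in 9.39% of EOM nuclei (95% interval 7.15 to 12.0%), against 63.6% of QFM nuclei (58.9 to 68.2%). PAX7 alone, with neither other gene, brought in 292 EOM nuclei (49.8%) and 44 QFM nuclei (10.3%). All 3 genes were seen in 21 EOM nuclei (3.58%) and 177 QFM nuclei (41.3%). Among endothelial-like nuclei, with a median depth of 2625 UMIs in EOM and 3660 in QFM, PAX7 was seen in 3.39% in EOM and 0.599% in QFM, and MYF5 in 0.158% in EOM and 0.400% in QFM.

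On the CPM scale PAX7 stood at 1125 in EOM and 1434 in QFM nuclei, a log2 ratio of EOM over QFM of -0.35, and in-cluster at 1738 in EOM and 1790.03 in QFM (log2 ratio -0.042). CHRDL2 stood at 313 CPM in EOM, against 589.6 in QFM (log2 ratio -0.91, in-cluster -0.42). MYF5 stood at 34.6 CPM in EOM, against 406 in QFM, from 60 UMIs in EOM and 573 UMIs in QFM, a log2 ratio of -3.55 that was -3.13 in-cluster. PAX7 was thus near parity inside the satellite-like clusters while MYF5 was far lower in EOM, a description only, since these genes chose the nuclei. NCAM1 was seen in 84.1% of EOM and 84.1% of QFM nuclei, against 9.15% of EOM and 5.69% of QFM endothelial-like nuclei. It stood at 1366 CPM in EOM, against 950.3 in QFM (log2 ratio 0.52, in-cluster 0.98, and 1.26 with the 0.25% myosin limit in both libraries). CALCR, FGFR4 and TENM4 were not analysed here.

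Within each library the nuclei varied with the genes seen, though a gene can be missed in a shallow nucleus. In EOM, 59.6% of the 292 nuclei with PAX7 alone lay in the satellite-like cluster, as did 81.6% of the 239 with CHRDL2 but no MYF5 and 81.8% of the 55 with MYF5. In QFM the same shares were 88.6%, 83.0% and 87.9% of 44, 112 and 273 nuclei. NCAM1 in EOM stood at 1022 CPM with PAX7 alone, 1765 with CHRDL2 and 1838 with MYF5. MEGF10, an engulfment receptor of satellite cells, differed little over the same EOM sets, at 500.1, 646 and 668 CPM. KCNIP4, a potassium channel-interacting protein described below, stood at 5078, 3251 and 3972 CPM over the QFM sets, and MYF6, a late myogenic factor, at 148, 213 and 314 CPM.

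Genes at 5 times or more the level in each of myofibre-, fibroblast-, endothelial-, mural- and macrophage-like nuclei of the same library were counted among genes with at least 20 UMIs in the library. Of 9525 genes with a symbol and at least 20 UMIs over both sums, 35 met this in EOM, 72 in QFM and 22 in both. The 22 were 62.9% of the EOM and 30.6% of the QFM genes. Rule genes were not left out of these counts. The EOM members include the 88 nuclei in myofibre-like clusters, and their part in the lower EOM count was not tested. OLFML2B, an olfactomedin-like matrix protein, stood at 439.9 CPM in EOM, against 649.8 in QFM, in-cluster 781 in EOM and 811 in QFM. MEGF10, which met this in QFM but not in EOM, was level at 568 CPM in EOM, against 568 in QFM; EOM fibroblast-like nuclei held 129 CPM of it. CLCN5, an endosomal chloride exchanger, stood at 827 CPM in EOM, against 904 in QFM, and CHRNA1, the alpha subunit of the muscle acetylcholine receptor, at 251 CPM in EOM, against 373 in QFM. CRISPLD2, a secreted cysteine-rich protein, stood at 294 CPM in EOM, against 467 in QFM (in-cluster log2 ratio -0.15), and ALDH3A2, a fatty aldehyde dehydrogenase, at 349.8 CPM in EOM, against 295 in QFM. ADAMTS14, a procollagen peptidase, and the cadherin CDH4 leaned to EOM, with log2 ratios of 0.88 and 0.99 that were 1.41 and 1.32 in-cluster. In myofibre-like nuclei, OLFML2B stood at 18.8 CPM in EOM, against 2.14 in QFM, CHRNA1 at 30.6 in EOM and 3.86 in QFM, and CRISPLD2 at 10.7 in EOM and 2.96 in QFM.

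**Figure D2:**
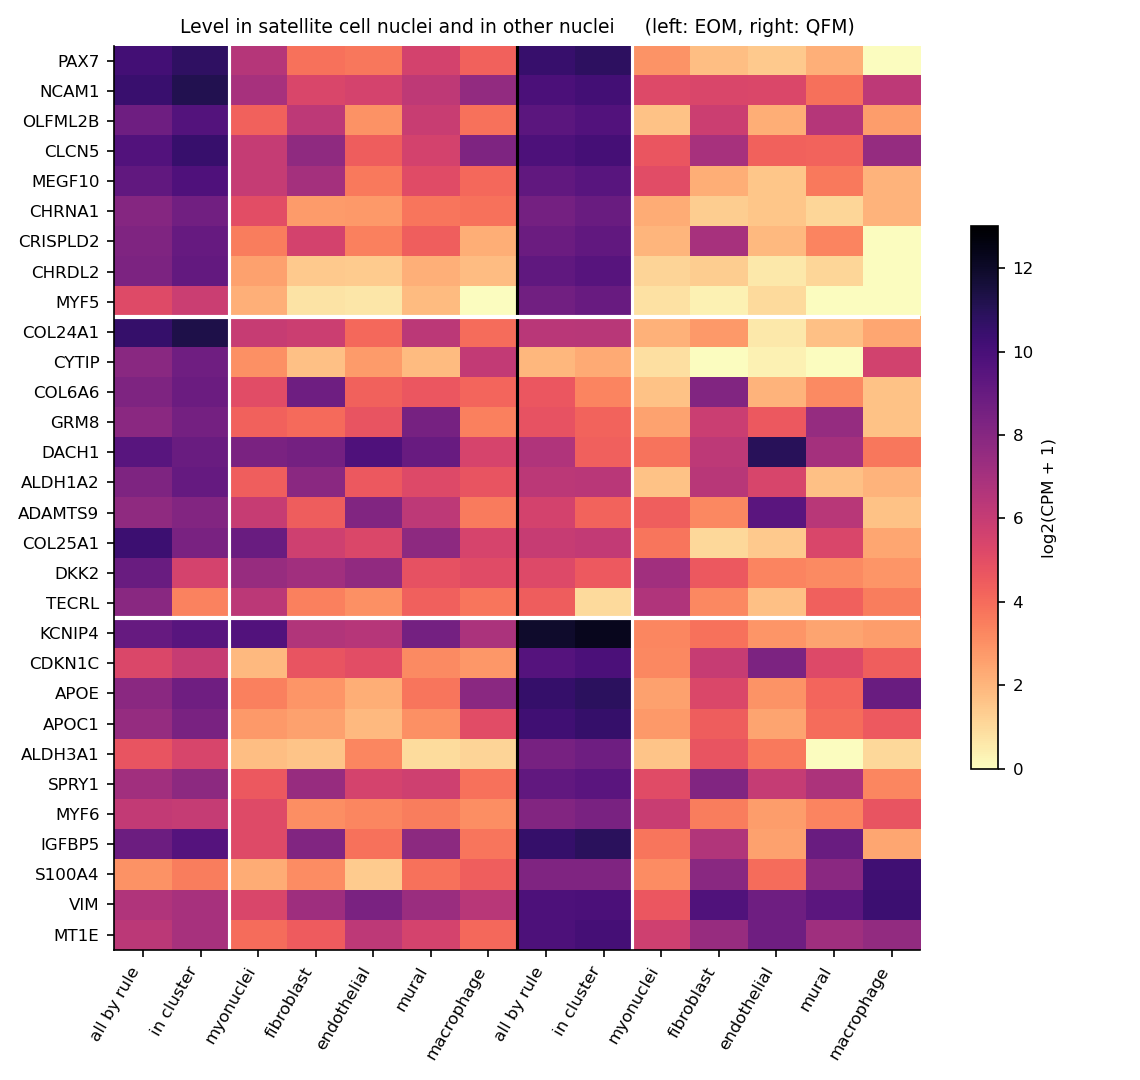
Levels as log2 of CPM plus 1 in satellite nuclei by the rule, in-cluster nuclei, myofibre-like nuclei and 4 other classes, EOM columns on the left and QFM columns on the right. The top block holds genes of satellite nuclei in both muscles, the middle block (COL24A1 to TECRL) genes that led in EOM, and the bottom block (KCNIP4 to MT1E) genes lower in EOM, with KCNIP4 high in EOM but not in QFM myonuclei.

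A gene was counted as different when its CPM differed at least 2-fold between EOM and QFM satellite nuclei, among 11547 genes with at least 20 UMIs over both. Of these, 3000 (26.0%) differed, 1323 higher in EOM (11.5%) and 1677 lower (14.5%), around a median log2 ratio of -0.052. In the library where the gene was higher, 183 genes higher in EOM (1.58%) and 1314 lower in EOM (11.4%) stood at 2 times or more the myonuclear level. These counts moved with the myosin limit, to 293 higher and 1073 lower with 0.25% in both libraries and 408 higher and 664 lower with 1% in both. In-cluster, 930 of 9698 genes with at least 20 UMIs over both were higher (9.59%) and 1241 lower (12.8%), and 593 of the 1323 higher and 1077 of the 1677 lower genes were among them. As a level of RNA shed by other cells, the lowest CPM over fibroblast-, endothelial-, mural- and macrophage-like nuclei of the same library was used. In the higher library, 526 in-cluster higher genes (5.42%) and 908 lower genes (9.36%) reached 2 times that level.

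CYTIP, a cytohesin-binding scaffold protein best known from lymphocytes, had the largest ratio of the 15 genes that led in EOM at 100 CPM or more and 2 times or more the myonuclear level. It stood at 236 CPM (95% interval 214 to 260.1, 409 UMIs) in EOM satellite nuclei and 2.83 CPM (0.772 to 7.26, 4 UMIs) in QFM. The log2 ratio was 6.38 (5.01 to 8.26), and between 5.92 and 7.09 over 12 alternatives. A UMI was seen in 190 of 586 EOM nuclei and 1 of 429 QFM nuclei, which held all 4 QFM UMIs. In-cluster the levels were 412 CPM in EOM, against 4.02 in QFM, and in macrophage-like nuclei 68.8 CPM in EOM, against 47.2 in QFM, so the EOM satellite level was above that of the macrophages in its own library. Over the EOM sets CYTIP stood at 114 CPM with PAX7 alone, 372 with CHRDL2 and 428 with MYF5. In myofibre-like nuclei it stood at 7.03 CPM in EOM, against 0.776 in QFM.

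COL24A1, a fibrillar collagen of developing bone and cornea in the mouse, was seen across most EOM satellite nuclei. Its level was 1507 CPM (1450.05 to 1566) in EOM and 82.2 CPM (67.9 to 98.6) in QFM, a log2 ratio of 4.20 (3.93 to 4.48). In-cluster it stood at 2556 CPM in EOM, against 84.5 in QFM, and over 12 alternatives the log2 ratio lay between 3.95 and 5.13. With each nucleus thinned to 1000 UMIs, which left out 15 EOM and 3 QFM nuclei, 63.7% of EOM (95% interval 59.7 to 67.7%) and 5.87% of QFM nuclei (3.83 to 8.54%) held a UMI. Unthinned the shares were 76.5% in EOM and 12.8% in QFM, and among thinned endothelial-like nuclei 1.55% in EOM and 0.101% in QFM. Within EOM the gene varied widely, with 5 or more UMIs in 198 nuclei, none in 138 and up to 34 in a single nucleus. Myonuclei had 61.3 CPM in EOM, against 3.25 in QFM.

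Other genes that led in EOM kept or widened their ratio in-cluster. COL6A6, a chain of microfibrillar collagen VI, stood at 299.6 CPM in EOM and 24.1 in QFM, a log2 ratio of 3.64 that was 5.67 in-cluster. GRM8, a metabotropic glutamate receptor, stood at 226 CPM in EOM, against 26.9 in QFM (log2 ratio 3.07, in-cluster 4.36), with 363 CPM in EOM, against 179 in QFM in mural-like nuclei. DACH1, a corepressor that works with EYA factors, stood at 719 CPM in EOM, against 99.9 in QFM (log2 ratio 2.85, in-cluster 4.67). Of its 1246 EOM UMIs, 579 came from the 88 members in myofibre-like clusters, and the log2 ratio was 2.33 with the 0.25% limit in both libraries. Endothelial-like nuclei held more of it, 864 CPM in EOM, against 1981 in QFM. ADAMTS9, a proteoglycan-cleaving metalloprotease, stood at 204 CPM in EOM, against 46.1 in QFM, in-cluster 269 in EOM and 18.1 in QFM. ALDH1A2, which makes retinoic acid, stood at 301 CPM in EOM, against 79.4 in QFM (log2 ratio 1.92, in-cluster 2.69). FREM1, a basement membrane protein, had a log2 ratio of 1.89 (in-cluster 2.27), and CACHD1, a relative of calcium channel alpha2delta subunits, 1.87 (2.35). In EOM myonuclei DACH1 stood at 328 CPM, and the other 6 between 18.6 CPM for GRM8 and 76.6 CPM for CACHD1.

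A second group of leading EOM genes sat mainly in the 88 nuclei that met the rule but fell in myofibre-like clusters. COL25A1, a transmembrane collagen needed for motor innervation in the mouse, stood at 1279.9 CPM in EOM, against 62.4 in QFM, a log2 ratio of 4.36, but 1698 of its 2217 EOM UMIs came from those 88 nuclei, at 3624 CPM. In-cluster its levels were 335 CPM in EOM, against 67.4 in QFM (log2 ratio 2.31). DKK2, a secreted modulator of Wnt receptors, had 647 of 843 EOM UMIs there, and its log2 ratio was 3.78 over all members, 1.01 in-cluster and 0.85 with the 0.25% limit in both libraries. TECRL, an endoplasmic reticulum protein of striated muscle, had 356 of 409 UMIs there. Its log2 ratio of 3.52 turned to -2.01 with the 0.25% limit in both, which left 146 EOM nuclei. In-cluster it had 8 UMIs in EOM (9.37 CPM), against 1 of its 29 QFM UMIs (1.01 CPM), so its direction rests on few UMIs. COL28A1, a nerve-associated collagen, had 146 of 182 UMIs there, with 3 UMIs in QFM (log2 ratio 5.63, 4.06 to 7.92). ARHGAP15, a Rac GTPase-activating protein of leukocytes, had 363 of 448, in-cluster levels of 36.3 CPM in EOM, against 8.05 in QFM, and 1697 CPM in EOM, against 1143 in QFM in macrophage-like nuclei. TMTC1, a protein mannosyltransferase, had 1342 of 2270, and its log2 ratio of 1.98 was 0.57 in-cluster, under 2-fold. COL25A1, DKK2 and TECRL were also among the 10 genes most raised in a myofibre-like EOM cluster of 486 barcodes. The myonuclear level used here is an average over all myofibre-like clusters.

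**Figure D3:**
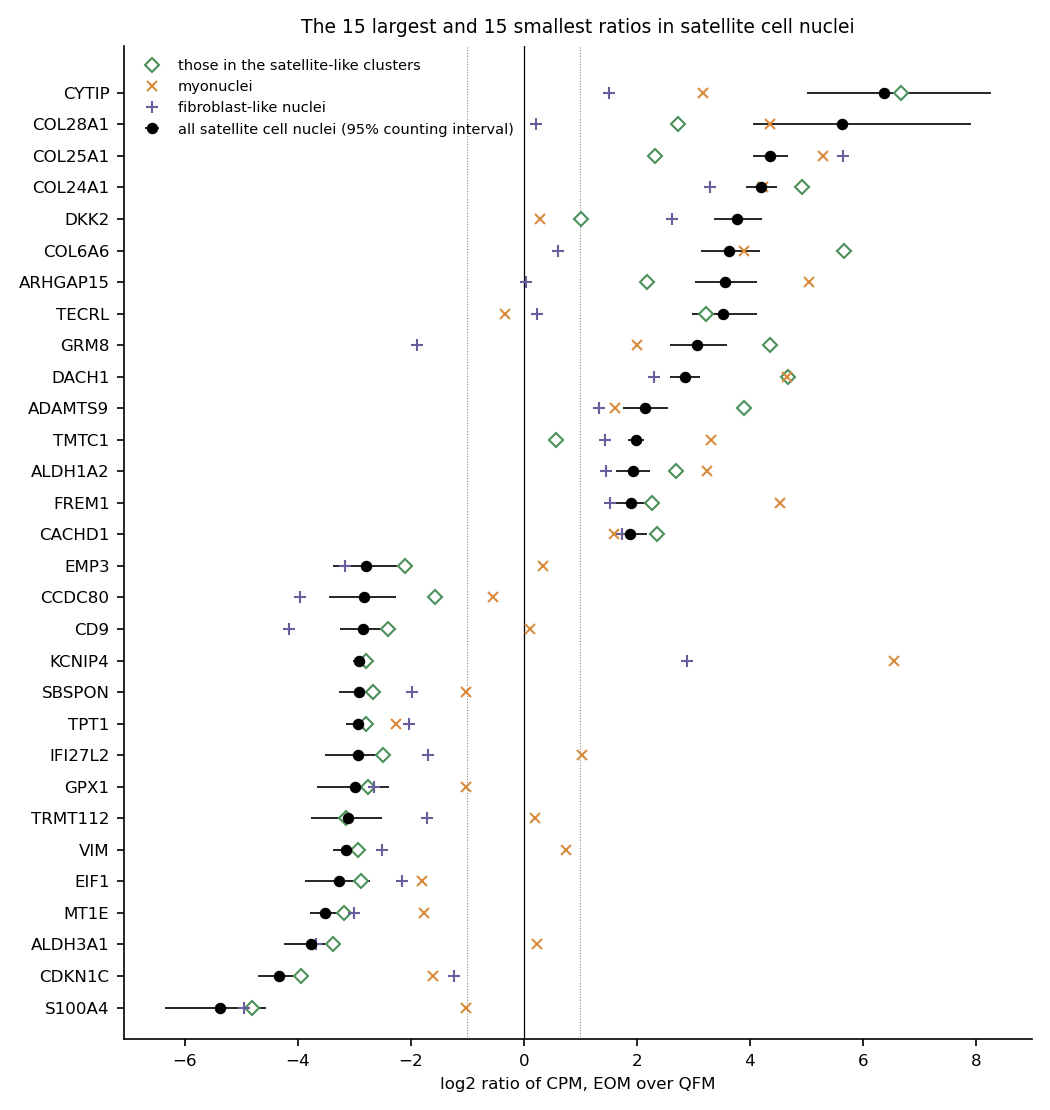
Log2 ratio of EOM over QFM CPM (x axis) for the 15 largest and 15 smallest ratios among genes at 100 CPM or more and 2 times or more the myonuclear level, with exact 95% intervals for all satellite nuclei (black), and the same ratio in in-cluster nuclei (green), myonuclei (orange) and fibroblast-like nuclei (purple). CYTIP and COL24A1 lie at 6.38 and 4.20 and higher in-cluster, COL25A1 and DKK2 lie at 2.31 and 1.01 in-cluster, and KCNIP4 at -2.92 in satellite nuclei lies far above 0 in myonuclei.

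Among genes lower in EOM satellite nuclei, KCNIP4, which binds Kv4 potassium channels, showed the opposite order in the myonuclei. Satellite nuclei held 517 CPM (483 to 552) in EOM and 3901 CPM (3799 to 4006) in QFM, a log2 ratio of -2.92 (-3.02 to -2.81). Myonuclei held 809 CPM in EOM, against 8.66 in QFM, a log2 ratio of 6.55. Its satellite level was thus below the myonuclear level in EOM and far above it in QFM. In-cluster the levels were 719 CPM in EOM, against 4968 in QFM, and the log2 ratio lay between -2.99 and -2.07 over 12 alternatives. A UMI was seen in 213 of 586 EOM and 354 of 429 QFM nuclei, and after thinning in 23.1% in EOM (19.7 to 26.8%) and 72.5% in QFM (68.0 to 76.7%). Of endothelial-like nuclei, 8.17% in EOM and 0.202% in QFM held one.

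CDKN1C, the cyclin-dependent kinase inhibitor p57, stood at 38.1 CPM (29.5 to 48.5) in EOM and 766 CPM (721 to 813) in QFM satellite nuclei. Its log2 ratio was -4.33 (-4.71 to -3.97), in-cluster -3.94, against -1.24 in fibroblast-like and -3.31 in endothelial-like nuclei of the same libraries. After thinning, 4.90% of EOM and 48.8% of QFM nuclei held a UMI (9.73% in EOM and 76.7% in QFM unthinned), as did 3.10% of EOM and 23.5% of QFM endothelial-like nuclei. ALDH3A1, an aldehyde dehydrogenase, stood at 26.0 CPM in EOM, against 353 in QFM (log2 ratio -3.76, in-cluster -3.38), with 2.37 CPM in EOM, against 2.02 in QFM in myonuclei.

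APOE, APOC1, LPL, PDE10A and IGFBP5 were also lower in EOM. APOE, the lipoprotein ligand, stood at 231 CPM in EOM, against 1485 in QFM (log2 ratio -2.68, in-cluster -2.13), and APOC1, another apolipoprotein, at 182 CPM in EOM, against 1188 in QFM (-2.71, in-cluster -2.13). Lipoprotein lipase, LPL, stood at 172 CPM in EOM, against 738 in QFM (-2.10, in-cluster -1.59). PDE10A, a cyclic nucleotide phosphodiesterase, stood at 433 CPM in EOM, against 1235 in QFM (-1.51, in-cluster -1.26), under 2-fold at -0.72 with the 1% myosin limit in both libraries. IGFBP5, which binds insulin-like growth factors, stood at 449 CPM in EOM, against 1486 in QFM (-1.73, in-cluster -1.34, and -0.87 with the 1% limit in both). In myonuclei, APOE stood at 9.86 CPM in EOM, against 4.87 in QFM, APOC1 at 5.93 in EOM and 5.69 in QFM, and IGFBP5 at 34.0 in EOM and 12.3 in QFM.

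Several of the other genes with the smallest ratios were lower in EOM in other classes too. S100A4, a calcium-binding protein, stood at 6.93 CPM in EOM, against 288 in QFM satellite nuclei (log2 ratio -5.38, in-cluster -4.81), and its log2 ratio in fibroblast-like nuclei was -4.96. MT1E, a metallothionein, had a log2 ratio of -3.52 in satellite and -3.00 in fibroblast-like nuclei, and the intermediate filament gene VIM -3.14 and -2.52. TPT1, a growth-related protein, had -2.93 in satellite nuclei, -2.27 in myonuclei and -2.04 in fibroblast-like nuclei. The same held for EIF1, an initiation factor, at -3.27 and -2.16, and for GPX1, a glutathione peroxidase, at -2.99 and -2.66, in satellite and fibroblast-like nuclei. The remaining 6, TRMT112, IFI27L2, SBSPON, CD9, CCDC80 and EMP3, had log2 ratios between -3.11 for TRMT112 and -2.79 for EMP3, and in-cluster between -3.15 for TRMT112 and -1.58 for CCDC80. Of 37 ribosomal protein genes measured, 35 were lower in EOM, against 14.5% of all genes, with a median log2 ratio of -2.77 in satellite nuclei, -0.75 in myonuclei, -1.67 in fibroblast-like and -0.64 in endothelial-like nuclei.

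Immediate-early and stress genes, which respond within minutes to growth factors and injury, were lower in EOM in 13 of 15 genes measured, against 14.5% of all genes, and higher in 0. Their median log2 ratio was -2.20 in satellite nuclei, -1.90 in myonuclei, -2.06 in fibroblast-like and -1.14 in endothelial-like nuclei. MYC, a growth-promoting factor, stood at 2.89 CPM in EOM, against 46.8 in QFM satellite nuclei. JUN and FOS, which together form the AP-1 factor, stood at 29.4 and 2.31 CPM in EOM, against 153 and 24.8 in QFM. BTG2, an antiproliferative protein, stood at 11.0 CPM in EOM, against 73.7 in QFM. ZFP36, which degrades messenger RNAs, and the nuclear receptor NR4A1 stood at 6.35 and 4.04 CPM in EOM, against 50.3 and 20.6 in QFM. In-cluster, 9 of 12 were lower, and 4 of these 9 reached 2 times the lowest non-muscle level of QFM. Of the 13 lower over all members, 5 stood at 2 times or more the QFM myonuclear level. The log2 ratio of FOS lay between -4.92 and -1.70 over 12 alternatives.

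Genes of the satellite cell state were next described by list, to be read against the 26.0% of all genes that differed and their median of -0.052. Of 22 satellite cell identity genes measured, 5 were higher and 6 lower in EOM (median log2 ratio -0.17), and in-cluster 2 higher and 6 lower of 17, with a median of -0.042. The list holds MYF5, which helped to choose the nuclei, so these counts and medians are in part a description of the choice. Besides MYF5, CXCR4, the receptor of the chemokine CXCL12, stood at 18.47 CPM in EOM, against 93.5 in QFM (log2 ratio -2.34, in-cluster -1.78). MSC, the musculin repressor, stood at 15.01 CPM in EOM, against 85.7 in QFM (-2.51, in-cluster -2.13). PRDM16, a zinc finger factor, stood at 31.2 CPM in EOM, against 4.25 in QFM, but at 32.0 CPM in EOM myonuclei. CTNND2, a delta-catenin, stood at 31.8 CPM in EOM, against 1.42 in QFM, with 80.2 CPM in EOM myonuclei.

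Of 16 Notch pathway genes, 12 lay within 2-fold, a share near that of all genes, with 3 lower and 1 higher in EOM (median log2 ratio -0.42), and in-cluster 2 higher and 1 lower of 15, with a median of -0.067. The Notch targets HEYL, at 102 CPM in EOM and 157 in QFM, and HEY1, at 36.4 in EOM and 53.9 in QFM, had in-cluster log2 ratios of -0.15 and 0.060. HES1, another target, stood at 132 CPM in EOM, against 345 in QFM (log2 ratio -1.39, in-cluster -1.004, under 2-fold at -0.95 with the 0.25% and -0.56 with the 1% limit in both). DTX4, a ubiquitin ligase of the pathway, stood at 60.6 CPM in EOM, against 111 in QFM. MAML2, a coactivator, had a log2 ratio of 1.70, but its in-cluster level of 143 CPM in EOM was below the lowest non-muscle level of 1003 CPM. RFNG, a fringe glycosyltransferase, had -1.30 over all members and -0.46 in-cluster.

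Quiescence genes lay within 2-fold in 14 of 18 cases, and 4 were lower and 0 higher in EOM (median log2 ratio -0.25), and in-cluster 0 higher and 4 lower of 17, with a median of -0.075. The lower ones were CDKN1C, CDKN2C, SPRY1 and TXNIP. CDKN2C, a second kinase inhibitor (p18), stood at 5.196 CPM in EOM and 36.9 in QFM (log2 ratio -2.83). SPRY1, a feedback inhibitor of FGF signalling that keeps mouse satellite cells quiescent, stood at 141 CPM in EOM, against 572 in QFM (-2.02, in-cluster -1.64). TXNIP, a regulator of thioredoxin and glucose uptake, stood at 169.7 CPM in EOM, against 681 in QFM (-2.005), with 113 CPM in EOM, against 269 in QFM in myonuclei. The collagen V chain COL5A3, a Notch-induced niche component in the mouse, had a log2 ratio of -0.84 that was 0.054 in-cluster, and COL6A3 stood in-cluster at 7.03 CPM in EOM, against 7.04 in QFM.

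Few nuclei of either muscle held transcripts of dividing cells. MKI67 or TOP2A was seen in 3 of 586 EOM and 3 of 429 QFM nuclei. Of 8 proliferation genes measured, 4 were lower in EOM and 0 higher (median log2 ratio -0.92), and in-cluster 1 of 6 was lower. HELLS, a chromatin remodeller, stood at 20.8 CPM in EOM, against 41.8 in QFM (log2 ratio -1.01, in-cluster -0.30). CCND2, a D-type cyclin, stood at 73.9 CPM in EOM, against 101 in QFM, and the helicase subunit MCM7 at 78.5 CPM in EOM, against 88.6 in QFM.

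MYOD1 and MYOG were seen in few nuclei. MYOD1 was seen in 1 EOM and 0 QFM nuclei. After thinning it was seen in 0 of 571 EOM and 0 of 426 QFM nuclei, which, with 3 nuclei as the limit of a count of 0, allows up to 0.525% of EOM and 0.704% of QFM nuclei with a UMI at that depth and sets no limit on nuclei that express it. MYOG, which drives terminal differentiation, was seen after thinning in 4.55% of EOM and 0.235% of QFM nuclei (7.17% in EOM and 0.932% in QFM unthinned). Endothelial-like nuclei gave 0.654% in EOM and 0.303% in QFM, and myonuclei 6.43% in EOM and 4.24% in QFM. In-cluster the MYOG share was 1.49% in EOM and 0 of 370 nuclei in QFM, which by the same limit allows up to 0.811% of nuclei with a UMI at that depth. The MYOG log2 ratio was 3.31 over all members and 0.98 with the 1% myosin limit in both libraries. MYF6, a factor of mature muscle, ran the other way, at 67.5 CPM in EOM, against 271 in QFM (log2 ratio -2.01, in-cluster -2.38), in 6.48% of thinned EOM and 22.8% of thinned QFM nuclei (16.2% of EOM and 52.2% of QFM nuclei unthinned). Its level in myonuclei was 34.7 CPM in EOM, against 59.1 in QFM, below that of the satellite nuclei in each library.

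Over the whole commitment and fusion list, 6 of 15 genes were higher and 3 lower in EOM (median log2 ratio 0.28), and in-cluster 3 higher and 3 lower of 14, with a median of 0.19. The embryonic and cardiac sarcomere genes TNNT2 and ACTC1 had 454 and 550 UMIs in EOM, against 2 and 7 in QFM. In EOM in-cluster nuclei they stood at 56.2 and 200.3 CPM, against 51.6 and 173 CPM in the non-muscle class where each was lowest. ADGRB3, an adhesion receptor that acts in myoblast fusion in the mouse, stood at 238 CPM in EOM and 42.5 in QFM (in-cluster 104 in EOM and 20.1 in QFM), with 64.1 CPM in the lowest non-muscle class of EOM.

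**Figure D4:**
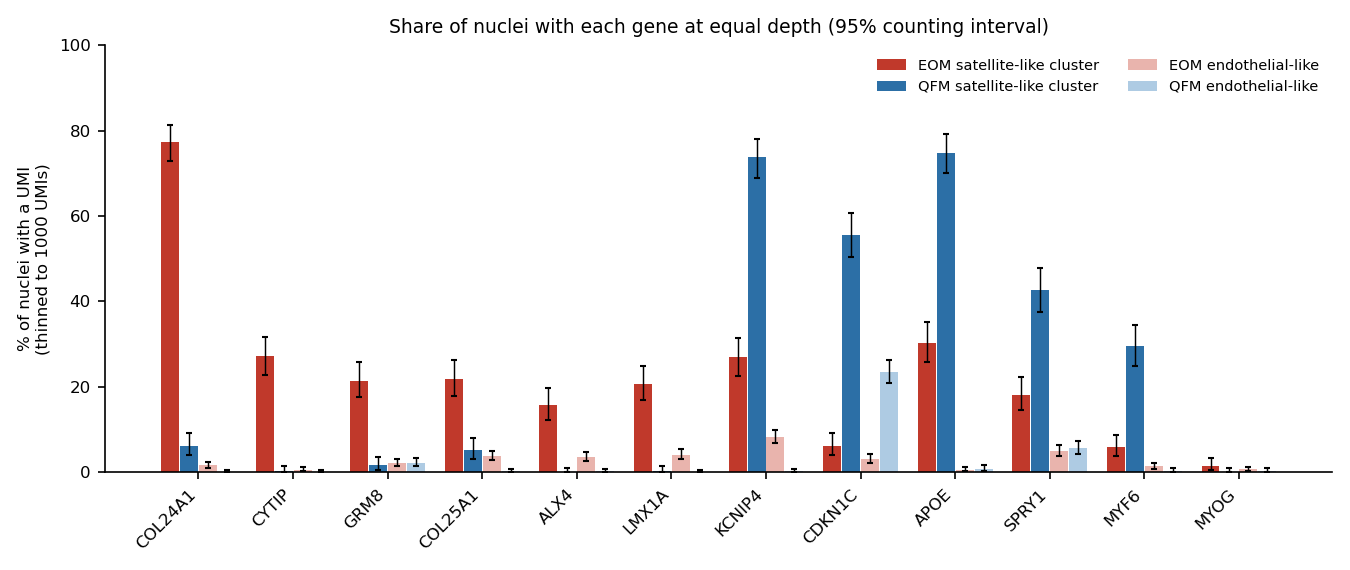
Share of nuclei with a UMI of each gene (y axis, %) after thinning every nucleus to 1000 UMIs, for in-cluster satellite nuclei (dark bars) and endothelial-like nuclei (pale bars) of EOM and QFM, with exact binomial 95% intervals. COL24A1 was seen in 77.4% of EOM and 6.22% of QFM in-cluster nuclei, and KCNIP4 in 26.9% of EOM and 73.8% of QFM in-cluster nuclei.

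Homeobox and other patterning genes differed between the muscles in both directions. Of 7 head muscle genes measured, 3 were higher and 1 lower in EOM. LMX1A, a LIM homeobox factor, stood at 342 CPM in EOM, against 10.6 in QFM (log2 ratio 5.01), in-cluster 269 in EOM and 1.01 in QFM. ALX4, an aristaless-like homeobox factor, stood at 163 CPM in EOM, against 2.83 in QFM (5.85), in-cluster 172 in EOM and 2.01 in QFM. Both stood higher in EOM myonuclei, at 447 and 222 CPM, and stood at 36.8 and 33.2 CPM in the lowest non-muscle class of EOM. BARX2, a homeobox factor that promotes mouse satellite cell growth, stood at 77.4 CPM in EOM, against 23.4 in QFM (in-cluster log2 ratio 2.37).

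The limb and trunk list gave 4 genes higher and 3 lower in EOM of 12 (median log2 ratio 0.60), and in-cluster 8 higher and 2 lower of 11, with a median of 1.195. Of the 4 higher genes, 0 stood at 2 times or more the EOM myonuclear level. Of the 8 higher in-cluster, 4 reached 2 times the lowest non-muscle level of EOM. SIM1, a basic helix-loop-helix factor of limb muscle precursors in the mouse, had 0 UMIs in EOM and 107 in QFM (75.8 CPM), at least 43.8-fold lower in EOM with the EOM level set at a floor of 3 UMIs. QFM myonuclei held 55.5 CPM of it. LGR5, a receptor for R-spondins, had 3 UMIs in EOM and 42 UMIs in QFM (log2 ratio -4.10, -6.44 to -2.46). Its in-cluster QFM level of 9.06 CPM was close to the 7.90 CPM of the lowest non-muscle class there, and QFM myonuclei held 227 CPM. PAX3, the paralogue of PAX7 that acts in limb muscle precursors, was higher in EOM, at 50.2 CPM from 87 UMIs, against 2.13 CPM from 3 UMIs in QFM (log2 ratio 4.56, 2.97 to 6.87), with 60.2 CPM in EOM myonuclei. TBX15, a T-box factor, stood at 733 CPM in EOM, against 63.8 in QFM (in-cluster 519 in EOM and 38.2 in QFM), and TBX18 at 27.7 in EOM and 3.54 in QFM. PRRX1, a homeobox factor of connective tissue, had a log2 ratio of 1.74 over all members but 0.41 with the 0.25% limit in both. Of the HOX genes, which mark position along the body, 2 were measured and 2 were lower in EOM (median log2 ratio -3.33). HOXC9 had 0 UMIs in EOM and 60 in QFM, at least 24.6-fold lower with the same floor of 3 UMIs for the library, and HOXD3 had a log2 ratio of -2.03.

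EYA genes encode phosphatase coactivators that act with DACH1, whose values are given above. EYA2 stood at 104 CPM in EOM, against 20.6 in QFM (in-cluster log2 ratio 1.25). EYA1 stood at 451 CPM in EOM, against 247 in QFM (in-cluster log2 ratio 0.94). EYA4 stood at 806 CPM in EOM, against 315 in QFM (in-cluster log2 ratio 1.12, and 0.41 with the 1% limit in both). EYA4 was higher still in myonuclei, at 1534 CPM in EOM, against 1134 in QFM. EYA3 had a log2 ratio of 0.38.

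Of 24 IGF, HGF and FGF genes, 19 were within 2-fold, a share near that of all genes, 2 higher and 3 lower in EOM (median log2 ratio 0.011), and in-cluster 2 higher and 2 lower of 22, with a median of 0.070. FGF10, a mesenchymal FGF ligand, had 47 UMIs in EOM and 1 in QFM (log2 ratio 5.26, 2.71 to 10.59), in-cluster 41.0 CPM in EOM, against 0 in QFM, with 3.79 CPM in EOM myonuclei. FGF14, an intracellular regulator of sodium channels, stood at 95.8 CPM in EOM, against 9.92 in QFM. IGFBP2 and IGFBP6, both IGF-binding proteins, had in-cluster log2 ratios of -0.31 and -0.30.

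Of 33 TGF-beta and BMP genes, 27 were within 2-fold, 4 higher and 2 lower in EOM (median log2 ratio 0.15), and in-cluster 6 higher and 0 lower of 28, with a median of 0.37. BMPER, a BMP-binding endothelial regulator, stood at 86.0 CPM in EOM, against 23.4 in QFM (in-cluster log2 ratio 1.97), and SMAD9, a BMP-responsive SMAD, at 43.9 CPM in EOM, against 19.8 in QFM. BMPR1B, a BMP receptor, had a log2 ratio of 1.48 over all members, 0.53 in-cluster and -0.20 with the 1% limit in both. The coreceptor TGFBR3 stood at 598 CPM in EOM, against 1246 in QFM (-1.06, in-cluster -0.74, under 2-fold), and the activin receptor ACVR2B had a log2 ratio of -0.98.

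Of 22 Wnt and R-spondin genes, 8 were higher, 2 lower and 12 within 2-fold (median log2 ratio 0.62), and in-cluster 5 of 13 were higher, 3 of them at 2 times the lowest non-muscle level. The median of the list was 0.65 in myonuclei, 0.47 in fibroblast-like and 0.65 in endothelial-like nuclei. The coreceptor ROR2 stood at 30.6 CPM in EOM, against 9.92 in QFM, and the receptor FZD6 at 23.1 CPM in EOM, against 8.504 in QFM. AXIN2, a feedback gene of the pathway, stood at 23.7 CPM in EOM, against 6.38 in QFM. LEF1, its nuclear effector, had 35 UMIs in EOM and 2 in QFM (log2 ratio 3.83, 1.87 to 6.93). None of these 4 was clear of the EOM myonuclei, where ROR2, FZD6, AXIN2 and LEF1 stood at 17.1, 18.1, 31.2 and 15.3 CPM, against 15.2, 11.7, 18.7 and 5.86 CPM in EOM in-cluster nuclei.

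Of 41 extracellular matrix and basal lamina genes, 9 were higher and 6 lower in EOM (median log2 ratio -0.12), and in-cluster 11 higher and 2 lower of 34, with a median of 0.43. COL24A1, above, belongs to this list. LAMA1, a laminin chain, stood at 46.8 CPM in EOM and 6.38 in QFM, with 84.3 CPM in EOM myonuclei. COL1A1, a chain of collagen I made by fibroblasts, stood at 7.50 CPM in EOM, against 86.5 in QFM (log2 ratio -3.53, in-cluster -2.37). Fibroblast-like nuclei held 94.7 CPM of it in EOM, against 485 in QFM. The proteoglycan VCAN had a log2 ratio of -2.44 over all members and -0.63 in-cluster, with 139.9 CPM in EOM, against 996 in QFM in fibroblast-like nuclei.

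Adhesion, guidance and channel genes leaned to EOM in satellite nuclei, and by their medians also in myonuclei, fibroblast-like and endothelial-like nuclei. Some of them stood no higher in satellite nuclei than in other cells of the same library. Of 40 adhesion genes, 13 were higher and 3 lower (median log2 ratio 0.53). Their median was 2.29 in myonuclei, 0.61 in fibroblast-like and 0.69 in endothelial-like nuclei. Of the 13, only 2 stood at 2 times or more the EOM myonuclear level. In-cluster, 7 of 10 higher genes were at 2 times the lowest non-muscle level of EOM. CDH20, a type II cadherin, was such a gene, with 261 UMIs in EOM and 1 in QFM (log2 ratio 7.73, 5.24 to 13.04), 194 CPM in EOM in-cluster nuclei, 135 CPM in EOM myonuclei and 14.5 CPM in the lowest non-muscle class. PCDH9, a protocadherin, stood at 638 CPM in EOM, against 92.1 in QFM, in-cluster 437 in EOM and 74.5 in QFM. CADM1, an immunoglobulin-type adhesion molecule, had log2 ratios of 2.64 over all members and 1.24 in-cluster, and CDH2, N-cadherin, 2.74 and 1.68. The cadherin CDH18 stood at 76.1 CPM in EOM in-cluster nuclei, under the 89.7 CPM of the lowest non-muscle class.

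Axon guidance genes were higher in EOM in 13 of 32 cases and lower in 2 (median log2 ratio 0.54), and in-cluster 9 higher and 0 lower of 21, with a median of 0.75. Their median was 2.94 in myonuclei, 0.85 in fibroblast-like and 0.55 in endothelial-like nuclei. Of the 13, 4 stood at 2 times or more the EOM myonuclear level. Of the 9, 4 reached 2 times the lowest non-muscle level of EOM. The receptor ROBO2 had a log2 ratio of 6.73, but its 298 CPM in EOM in-cluster nuclei was below the 403 CPM of the lowest non-muscle class, and EOM myonuclei held 3358 CPM. SEMA3A, a repulsive semaphorin, had 198 UMIs in EOM and 0 in QFM, at least 53.8-fold higher in EOM with 3 UMIs set as the QFM floor, with 28.1 CPM in-cluster and 11.1 CPM in the lowest non-muscle class. The ephrin receptor EPHA7 had 66 UMIs in EOM and 0 UMIs in QFM, at least 17.9-fold higher, with 5.86 CPM in-cluster, and EPHB1 had log2 ratios of 2.57 and 1.98 in-cluster. The netrin receptor DCC had 106 UMIs in EOM and 3 UMIs in QFM (log2 ratio 4.85, 3.26 to 7.15) and 10.9 CPM in EOM myonuclei, against 61.2 CPM in EOM satellite nuclei. PLXNA4, a semaphorin coreceptor, stood at 46.8 CPM in EOM, against 7.80 in QFM.

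Of 23 glutamate receptor and channel genes, 14 were higher and 3 lower in EOM (median log2 ratio 1.92, and 0.89 with the 0.25% limit in both). Their median was 2.67 in myonuclei, 1.49 in fibroblast-like and 1.84 in endothelial-like nuclei. In-cluster 10 of 17 were higher, of which 4 stood at 2 times the lowest non-muscle level. KCNN2, a small-conductance calcium-activated potassium channel, stood at 218 CPM in EOM and 2.83 in QFM, in-cluster 116 in EOM and 3.02 in QFM, with 36.8 CPM in the lowest non-muscle class of EOM. KCNMA1, the large-conductance channel, had a log2 ratio of 4.39, with 1915 CPM in EOM in-cluster nuclei, 1349 in the lowest non-muscle class and 13983 CPM in EOM myonuclei. The AMPA receptor subunit GRIA3 stood at 89.0 CPM in EOM in-cluster nuclei and 67.5 CPM in the lowest non-muscle class, and the Kv4 channel KCND2 at 90.2 and 86.7 CPM. GRM7 and GRIN3A, a metabotropic receptor and an NMDA receptor subunit, had 132 and 37.5 CPM in EOM and 9.92 and 0.709 CPM in QFM over all members.

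Neuromuscular junction genes were higher in EOM in 6 of 17 cases and lower in 1 (median log2 ratio 0.36), and in-cluster 3 higher and 3 lower of 15, with a median of 0.26. The synaptic kinase MUSK stood at 375 CPM in EOM, against 211 in QFM satellite nuclei, and in myonuclei at 186 CPM in EOM and 24.0 in QFM. It was thus higher in satellite nuclei than in the average over all myofibre-like nuclei of each muscle. MUSK was, however, among the 10 genes most raised in a myofibre-like QFM cluster of 140 barcodes. RAPSN, which clusters acetylcholine receptors, was also above its myonuclear average. It stood at 28.3 CPM in EOM and 65.9 in QFM satellite nuclei and 13.2 CPM in EOM and 8.61 in QFM myonuclei. The RAPSN log2 ratio was -1.22, in-cluster -1.02, and -0.43 with the 1% limit in both. COLQ, the collagen tail of acetylcholinesterase, and DOK7, an activator of MUSK, had log2 ratios of 2.53 and 2.41, but stood higher in EOM myonuclei, at 416 and 107 CPM, than in EOM satellite nuclei, at 233 and 49.1. ERBB4, a neuregulin receptor, stood at 3310.2 CPM in EOM, against 1585 in QFM (log2 ratio 1.06, in-cluster 0.63, under 2-fold). The 4 junction marker genes summed to 859.6 CPM in EOM, against 625 in QFM.

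Of 19 cytokine and injury response genes, 3 were higher, 3 lower and 13 within 2-fold in EOM (median log2 ratio 0.055), and in-cluster 0 higher and 3 lower of 15, with a median of 0.25. NFKBIA, an inhibitor of NF-kappaB induced by it, stood at 27.1 CPM in EOM, against 135 in QFM. B2M, the light chain of class I antigen-presenting molecules, stood at 231 CPM in EOM, against 738 in QFM (log2 ratio -1.67, and -0.99 with the 1% limit in both). IL6 and the receptor LIFR, each with a log2 ratio of 1.23, were under 2-fold in-cluster, at 0.93 and 0.67.

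Of 26 oxidative phosphorylation and fatty acid genes, 3 were higher and 7 lower in EOM (median log2 ratio -0.25), and in-cluster 1 higher and 5 lower of 23, with a median of -0.32. The respiratory chain subunits COX7C, NDUFA4 and COX4I1 had log2 ratios of -1.67, -1.58 and -1.32, and in myonuclei -1.34, -1.14 and -0.57. FABP4, a fatty acid-binding protein of capillaries and fat, had 3 UMIs in EOM and 48 in QFM (log2 ratio -4.30, -6.62 to -2.66), but 8.05 CPM in QFM in-cluster nuclei against 34.0 over all members. PPARGC1B, a coactivator of oxidative genes, had a log2 ratio of 1.45 over all members and -0.082 with the 1% limit in both.

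**Figure D5:**
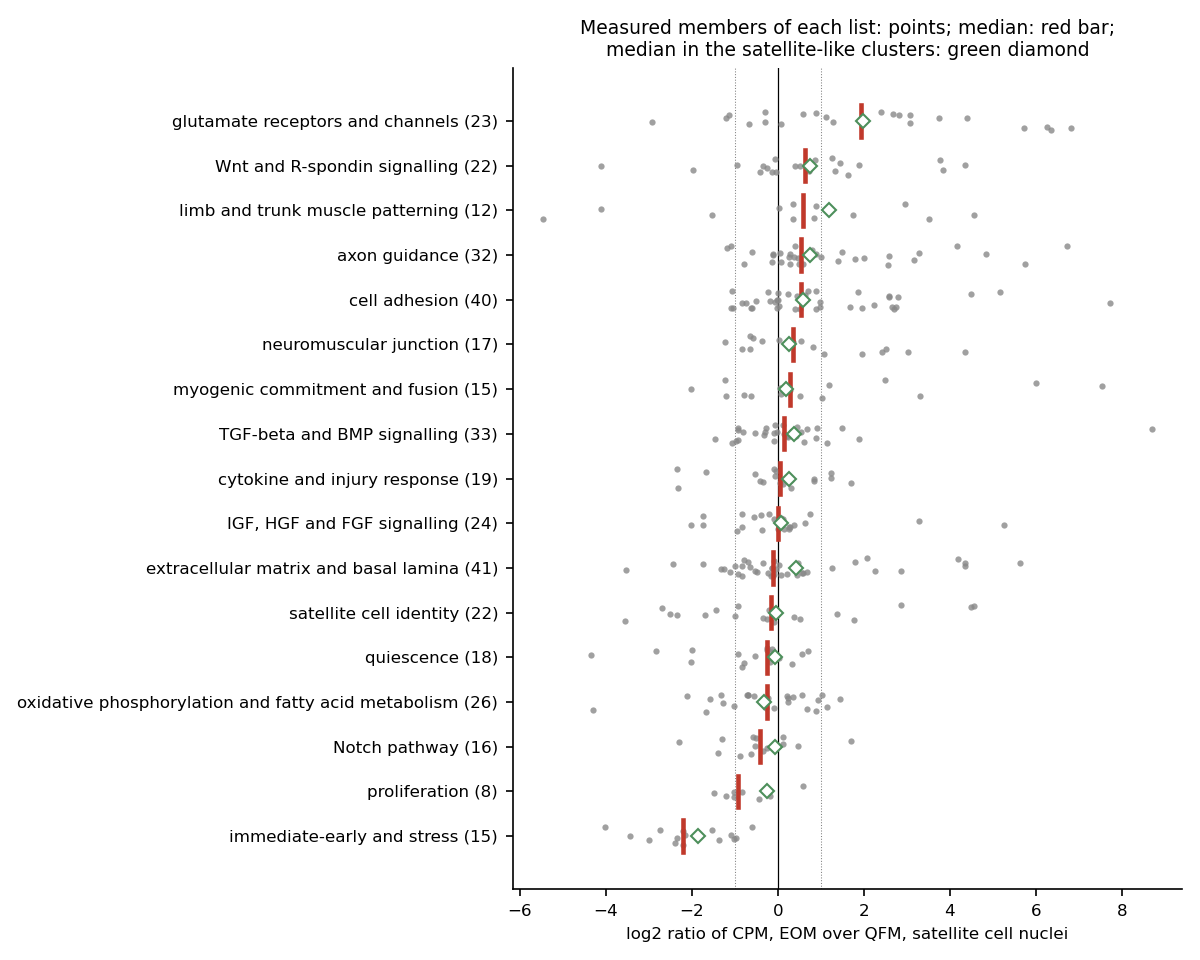
Log2 ratio of EOM over QFM CPM in satellite nuclei (x axis) for each measured member of 17 lists (points, number of members in brackets), with the list's median over all members (red bar) and over in-cluster nuclei (green diamond); dotted lines mark 2-fold. Immediate-early and stress genes lie lowest, with a median of -2.20, and glutamate receptors and channels highest, with a median of 1.92.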

How the data were processed

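UMI counts per feature and barcode came from the count matrices deposited by the authors, 1 matrix for each of the 3 libraries. Cell Ranger 7.2.0 and Seurat 5.2.1 are named in the submitters' processing notes; build, annotation and the treatment of introns were not given in the sources used here. Features carry the symbols of the deposited tables, 22005 of 38550 with a symbol. The 2 nuclei matrices held 61618999 UMIs in EOM and 72590186 UMIs in QFM.

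The nuclei, the gene lists and the lists of markers were chosen with earlier results of these data known. Counts were summed over the nuclei of a class and divided by their total (CPM, UMIs per 1000000). A difference is a log2 ratio of EOM over QFM with an exact conditional binomial 95% interval, 2-fold being the limit, among genes with at least 20 UMIs over both sums. A gene at 0 was set at 3 UMIs in its library for a bound. Shares have exact Clopper-Pearson 95% intervals. For shares at equal depth each nucleus was thinned to 1000 UMIs.

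Cell classes came from clustering each library (scanpy 1.11.5; at least 200 genes and 500 UMIs, mitochondrial share at most 10%; 2000 variable genes, 30 components, 15 neighbours, Leiden resolution 1). Scrublet called 2498 EOM (15.2%) and 1866 QFM (15.1%) barcodes doublets at an expected rate of 6%, which left 13975 EOM and 10525 QFM barcodes. The 25 EOM and 24 QFM clusters were named from at least 3 markers seen in 10% or more of their barcodes. Called doublets that met the rule were kept as satellite nuclei. The names are rebuilt and may differ from those of the study.

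Besides the rule genes and NCAM1, 4 groups of genes were named. These are the 15 largest and the 15 smallest log2 ratios at 100 CPM or more and 2 times or more the myonuclear level, the 10 highest markers per library at 5 times every other class, and up to 6 members of each of 20 lists at 20 CPM or more, 141 genes in all; a few of these, and the summary of some lists, are not reported here. Alternatives covered the myosin limit, the marker UMIs, thinning, scaling (edgeR 4.0.16 TMM), the clusters and the count minimum. The steps were tested on simulated counts. Python 3.11.15 was used.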

Additional observations from a re-analysis of the deposited data

Results flagged for a closer look

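A few barcodes of the library of dissociated whole EOM cells, which no comparison above uses, held UMIs of the rule genes. Of its 8979 barcodes, 8 (0.0891%) held at least 2 UMIs summed over CHRDL2 and MYF5. The level in cells that lack these genes was not tested, so the 8 barcodes are not called satellite cells. PAX7 was not analysed in this library, so the rule could not be applied there. The 8 barcodes had a median of 923.5 UMIs. A UMI of NCAM1 was held by 5 of them, and COL24A1, seen in 76.5% of EOM satellite nuclei, had 0 UMIs in all 8. At least 1 UMI of CHRDL2 or MYF5 was seen in 26 barcodes.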

How the results depend on the processing

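No paired analysis was possible because each muscle has 1 library and the labels give no shared replicate numbers. Of the 114 named genes past 2-fold, 22 were no longer past it under at least 1 of 12 alternatives. TMM and median ratio scaling moved none of the 141 named log2 ratios beyond its counting interval. The genes higher in EOM numbered 1323, and 700 with the 0.25% myosin limit in both libraries. Of the genes higher in EOM, 183 stood at 2 times or more the myonuclear level, 293 with the 0.25% limit in both, 408 with 1% in both and 483 with no count minimum. The lower genes at 2 times or more the QFM myonuclear level numbered 1314, 664 with 1% in both and 801 after thinning to 1000 UMIs. After thinning, 1859 genes passed 2-fold, 869 higher and 990 lower in EOM, against 3000 with 1677 lower before it. Those also at 2 times or more the myonuclear level numbered 957 after thinning and 1497 before it. Thinning also leaves fewer genes at 20 UMIs. With no count minimum, 4895 genes passed 2-fold, 2433 of them higher in EOM, and 2386 were above the myonuclear level. Lists with a median past 2-fold numbered 3, and 5 under each of the 1% limit, the satellite-like clusters, the in-cluster nuclei (an alternative chosen after seeing the data) and thinning. The share of barcodes that met the rule was 3.55% in EOM (2.03% after thinning, 0.885% with the 0.25% limit) and 3.43% in QFM (2.40% after thinning, 4.78% with the 1% limit). MYOD1 or MYOG was seen in 7.34% of EOM nuclei (4.55% after thinning, 2.90% in-cluster) and 0.932% of QFM nuclei (0.235% after thinning). The log2 ratio of TECRL was -2.01 with the 0.25% limit in both, but 1.74 in the satellite-like clusters. Those of BMPR1B and PPARGC1B were -0.20 and -0.082 with the 1% limit in both. The cause of these changes was not tested. Depth limits genes near 20 UMIs, whose counting intervals are wide.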
